A study of Macaca mulatta with 10 samples.

Results

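The medial nucleus and the pulvinar of the rhesus monkey thalamus were compared directly, using the 4 arrays whose titles name Medial Thalamus or Pulvinar out of the 10 arrays of the study. There were 2 arrays of each, numbered replicate 1 and replicate 2, and the difference was taken as Medial minus Pulvinar within each replicate number, for all 11963 genes. Tissue was taken as small punches from the brains of untreated adult rhesus monkeys (Macaca mulatta), and total RNA was hybridised to an Affymetrix array whose probes were designed for human transcripts. All groups share species, adult age and the lack of treatment. The labels give no animal, sex or hemisphere, and do not say which medial nucleus was punched. The number of animals is thus unknown, and the p-values measure only the spread between these arrays. The other 6 arrays, 2 each of Anterior Thalamus, Centre Median and Ventral Thalamus, were used to estimate the spread between arrays and as a reference for levels.

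As background, the medial thalamus of primates is dominated by the mediodorsal nucleus, which exchanges connections with the prefrontal cortex. The pulvinar, the large posterior nucleus that is greatly expanded in primates, is connected with visual, parietal and temporal association cortex. Both are association nuclei, which receive much of their driving input from cortex itself, and are usually set against first-order relay nuclei that carry sensory or motor signals upward. The relay cells of both are glutamatergic, and in primates both also hold local GABA neurons. Thalamic cells are often divided by their calcium-binding proteins, with parvalbumin in core relay cells and calbindin or calretinin in matrix, midline and intralaminar cells. The medial nuclei border the midline nuclei, the third ventricle and the habenula. A punch holds neurons, glia and vessels together, so fewer cells of a type and less RNA per cell cannot be told apart in any value below.

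All levels are log2(intensity + 1), and a difference of 1 is a 2-fold change. TCF7L2, a transcription factor that marks thalamic excitatory neurons, was at 11.78 and 12.68 in Medial replicates 1 and 2, and at 12.40 and 13.00 in Pulvinar replicates 1 and 2. SLC17A6, which loads glutamate into the synaptic vesicles of relay cells, was at 10.33 and 10.54 in Medial and at 10.59 and 10.86 in Pulvinar. Neither gene was called, and no marker in the labels sets the nuclei apart. Levels were more alike within a replicate number than within a nucleus: their correlation across all genes was 0.982 between Medial and Pulvinar of replicate 1 and 0.988 between those of replicate 2, but 0.940 between the Medial arrays and 0.949 between the Pulvinar arrays. The signal of actin probes at the 3′ end minus that at the 5′ end, a measure of RNA integrity, was -0.09 in Medial and 0.34 in Pulvinar in replicate 1, and 1.34 and 1.27 in replicate 2. XIST, the RNA of the inactive X chromosome, was at 6.70 in Medial and 9.60 in Pulvinar in replicate 1, and at 10.34 and 10.29 in replicate 2. RPS4Y1, a Y-linked ribosomal protein gene, was at 8.16 and 7.22 in replicate 1 and at 7.04 and 7.23 in replicate 2. The replicate 1 arrays of Medial and Pulvinar thus stood apart from each other in both genes, and those of replicate 2 did not. The Medial arrays also stood apart from each other in both genes. The difference taken within replicate 1 may thus not be within the same animals, which the labels do not say.

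Of all 11963 genes, 6 were called different between Medial and Pulvinar. In the linear model (limma) over all 10 arrays, with the replicate number as a block and Benjamini-Hochberg adjustment over all genes, 5 genes were lower in Medial at an adjusted p under 0.05, or 0.0418% of genes tested. They were ATP2B1, OPN3, HS3ST1, PSD3 and KIT. The uncharacterised locus LOC728392 was higher, the only gene called in that direction, or 0.00836%. The difference was above 0 for 6033 of the 11963 genes, its median was 0.0014, and 943 genes had an unadjusted p under 0.05. Normalising arrays to each other brings such a median near 0, so it does not measure how close the nuclei were. The median size of the difference, regardless of sign, was 0.0997. Over all pairs of nuclei it ranged from 0.0813 to 0.1171. In the same fit the 10 pairs of nuclei, which share arrays, had between 0 and 129 genes called: 129 for Medial against Ventral, and none for Anterior against Medial or Pulvinar, or for Pulvinar against Ventral, where 610, 572 and 710 genes had an unadjusted p under 0.05.

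The count depended on single arrays. It was 0 without Pulvinar replicate 1 (limma, with 785 genes at an unadjusted p under 0.05), 62 without Medial replicate 2, 35 without Medial replicate 1 and 11 without Ventral replicate 1. HS3ST1 and PSD3 were not called without Pulvinar replicate 2 (adjusted p = 0.106 and 0.0872), KIT was not called without Medial replicate 1 (0.0591), and neither KIT nor LOC728392 was called without Centre Median replicate 1 (0.0501 for both) or replicate 2 (0.0516 for both). Without the replicate block no gene was called and 88 had an unadjusted p under 0.05. Quantile normalisation gave 7 genes, 3 higher and 4 lower in Medial.

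With the spread estimated from the 4 arrays alone, 43 genes were called, 17 higher in Medial (0.142% of genes) and 26 lower (0.217%), and these included all 6 genes named above. This fit had 1 residual degree of freedom for each gene. Its spread therefore came mainly from the values shared over genes (18.5 prior degrees of freedom). A gene whose shift between replicate numbers differed among the other nuclei could be called here and not over 10 arrays. All 43 genes had the same sign in both replicates, and 31 passed 1.5-fold in both. The fit favours genes whose replicates agree, so this adds no support for the calls. The count was 27 after quantile normalisation, with 14 higher and 13 lower, and 0 without the replicate block, where 32 genes had an unadjusted p under 0.05 in limma.

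Judged by size alone, 15 genes were over 1.5-fold higher in Medial in both replicates (0.125%) and 35 were over 1.5-fold lower in both (0.293%), while 12 passed this size in opposite directions. Over 2-fold in both replicates were 2 genes higher and 4 lower. Of the 15 higher genes 10 were called over the 4 arrays, and of the 35 lower genes 21 were. Across genes, which are not independent replicates, the differences of replicate 1 and of replicate 2 had a Pearson correlation of 0.0872, and 5939 genes (49.6%) had the same sign in both. For the remaining genes the sign changed from one replicate to the other.

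**Figure D1:**
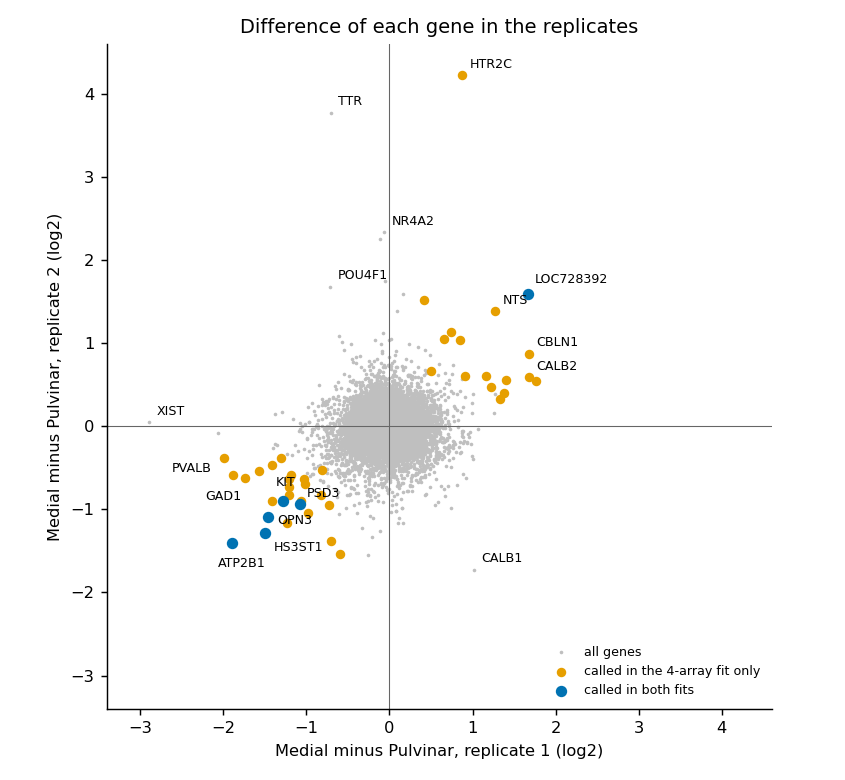
Difference between Medial and Pulvinar (log2) in replicate 1 (horizontal axis) and in replicate 2 (vertical axis), 1 point for each of 11963 genes; blue points were called in the 10-array and the 4-array fit, and orange points in the 4-array fit only. The 6 blue genes lie near the diagonal, whereas TTR, NR4A2, POU4F1, CALB1 and XIST differ in 1 replicate or in opposite directions.

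ATP2B1 encodes a plasma membrane pump that exports calcium from the cell. Its level was 8.75 and 10.11 in Medial replicates 1 and 2, and 10.64 and 11.51 in Pulvinar. Both Medial arrays lay below both Pulvinar arrays. The differences within replicates were -1.89 and -1.41, and their mean was -1.65 (SE 0.17, 3.14-fold lower in Medial, adjusted p = 0.00377 over 10 arrays and 0.000169 over 4). The other 3 nuclei ranged from 9.49 to 11.40, so that Medial replicate 1 was the lowest of the 10 arrays and Pulvinar replicate 2 the highest. All 3 ATP2B1 probe sets were lower in Medial in both replicates.

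OPN3, which encodes the opsin known as encephalopsin, was at 7.02 and 7.75 in Medial and at 8.47 and 8.83 in Pulvinar. The groups did not overlap, and the mean difference was -1.27 (SE 0.14, adjusted p = 0.00587 over 10 arrays and 0.000857 over 4). HS3ST1 encodes a sulfotransferase that modifies heparan sulfate, a sugar chain of cell surfaces and matrix. It was at 4.81 and 6.32 in Medial and at 6.31 and 7.60 in Pulvinar. Medial replicate 2 and Pulvinar replicate 1 were level, so the groups overlapped, but within replicates the differences were -1.50 and -1.28 (mean -1.39, SE 0.18, adjusted p = 0.014). The call rested on 1 of 3 HS3ST1 probe sets: the other probe sets had mean differences of 0.031 and -0.132, and with the mean of all probe sets the difference was -0.50 (adjusted p = 0.238).

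PSD3, an exchange factor for the small GTPase ARF6, was at 7.90 and 8.41 in Medial and at 8.98 and 9.34 in Pulvinar. Both Pulvinar arrays were above all 8 others, but Pulvinar replicate 1 (8.976) was level with Ventral replicate 2 (8.969). Pulvinar minus the mean of the other 3 nuclei was 0.61 (limma, adjusted p = 0.41). The mean difference between Medial and Pulvinar was -1.01 (SE 0.13, adjusted p = 0.0154). KIT, the receptor tyrosine kinase for stem cell factor, was at 8.37 and 8.87 in Medial and at 9.66 and 9.76 in Pulvinar. Both Medial arrays were below all 8 others, the lowest of the remaining nuclei being 9.06. The mean difference was -1.09 (SE 0.15, adjusted p = 0.0154), and the adjusted p was 0.0556 after quantile normalisation and 0.0589 with the mean of all probe sets. Both PSD3 and KIT kept the direction, without the call, when Pulvinar replicate 1 was left out (adjusted p = 0.139 and 0.143). PSD3 also lost the call with the mean of all its probe sets, where its difference was -0.73 (adjusted p = 0.161).

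LOC728392 was at 8.70 and 8.96 in Medial and at 7.04 and 7.37 in Pulvinar. Both Medial arrays were above all 8 others, whose highest value outside Pulvinar was 8.13. The differences within replicates were 1.66 and 1.59, with a mean of 1.63 (SE 0.22, 3.09-fold higher, adjusted p = 0.0154 over 10 arrays and 5.68e-05 over 4). With the mean of all probe sets per gene its own value was the same and its adjusted p was 0.0781.

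**Figure D2:**
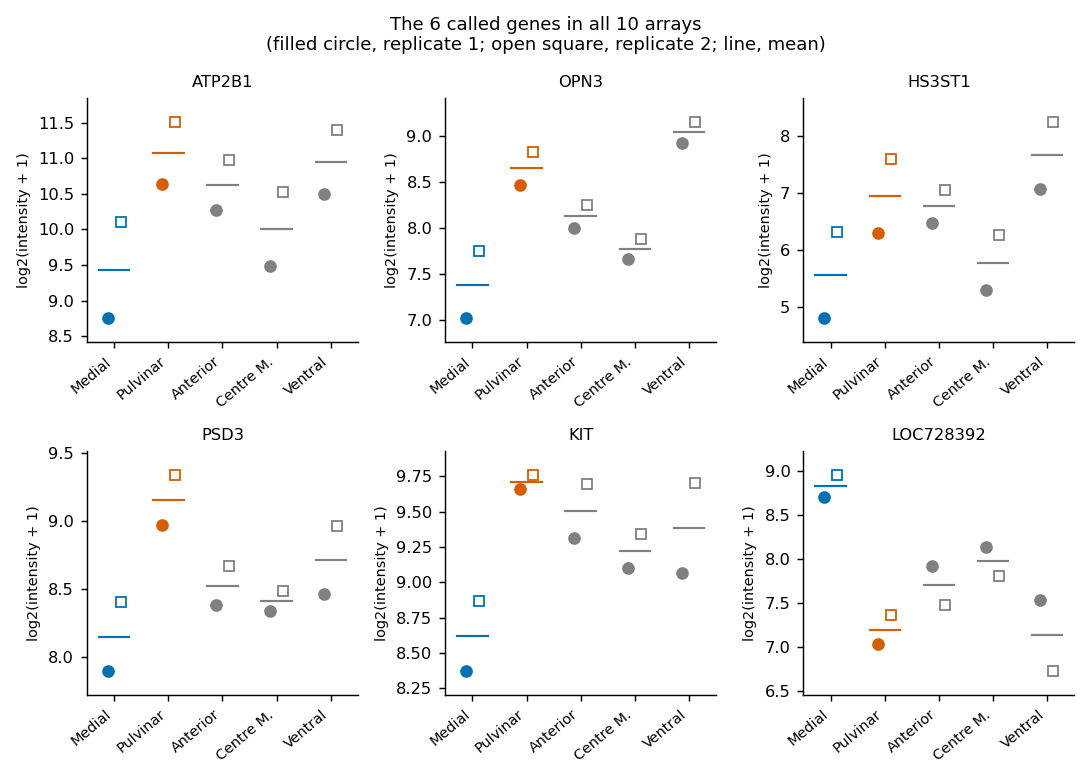
Level, log2(intensity + 1), of the 6 genes called over 10 arrays in each array of the 5 nuclei, with Medial in blue, Pulvinar in orange and the other nuclei in grey; filled circles are replicate 1, open squares replicate 2 and lines the mean of 2 arrays. Medial lies lowest for ATP2B1, OPN3, HS3ST1, PSD3 and KIT by its mean and highest for LOC728392, and HS3ST1 shows the overlap of Medial replicate 2 with Pulvinar replicate 1.

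Since the XIST and RPS4Y1 levels of replicate 1 moved with the nucleus, the fit was repeated with replicate 1 divided into its arrays with XIST above RPS4Y1 (Centre Median and Pulvinar) and those with XIST below it (Anterior, Medial and Ventral). Then 8 genes were called, all lower in Medial, and they shared ATP2B1 (difference -1.64, adjusted p = 0.0104), OPN3 (-1.21, 0.0333) and HS3ST1 (-1.41, 0.0408) with the 6 above. KIT (-0.92, adjusted p = 0.0717), PSD3 (-0.92, 0.0712) and LOC728392 (1.46, 0.0712) kept their direction and were not called. With the actin signal as a covariate 13 genes were called, including all 6.

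Beyond the called genes, the genes with the smallest p in each direction did not pass over 10 arrays and are given as values. Among those lower in Medial was GAD1, which makes the inhibitory transmitter GABA, at 8.54 and 9.58 in Medial and 10.27 and 10.20 in Pulvinar. The Medial arrays were below all 8 others, but the difference was -1.74 in replicate 1 and -0.63 in replicate 2 (mean -1.18, SE 0.21, adjusted p = 0.0875 over 10 arrays and 0.0141 over 4), and the other GAD1 probe sets had mean differences of -0.136 and -0.090. KLF13, a zinc finger transcription factor, differed by -0.98 and -1.04 (adjusted p = 0.0822 and 0.00411). The ubiquitin ligases RNF6 and WWP1 had mean differences of -0.83 (adjusted p = 0.0822) and -1.02 (0.0878). OPCML, a cell adhesion molecule of the neuronal surface, had -0.84 (0.0875).

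On the other side, CALB2, which encodes calretinin, was at 10.28 and 9.83 in Medial and at 8.60 and 9.24 in Pulvinar. Both Medial arrays were above all 8 others, and the differences of 1.67 and 0.59 had a mean of 1.13 (SE 0.20, adjusted p = 0.0875 over 10 arrays and 0.0176 over 4). ADCYAP1, the precursor of the neuropeptide PACAP, was at 8.37 and 8.41 against 7.63 and 7.28 (mean difference 0.94, SE 0.16, adjusted p = 0.0849 and 0.0135). It too was above all 8 others in both Medial arrays, and it was called over 10 arrays after quantile normalisation (adjusted p = 0.0453).

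CBLN1, a secreted cerebellin that bridges synapses, had a mean difference of 1.28 with an adjusted p of 0.106 over 10 arrays and 0.00186 over 4; its groups overlapped, at 8.86 and 7.005 in Medial and 7.18 and 6.13 in Pulvinar. CD24, a surface glycoprotein, had 1.15 (adjusted p = 0.0994), with 1.76 in replicate 1 and 0.54 in replicate 2. DPYSL3, a cytoskeletal protein of growing axons, had 0.94 (0.0822), ANXA2, a calcium-dependent membrane-binding protein, 0.88 (0.0877), and SYT17, of the synaptotagmin family, 0.85 (0.0994). GPX1, a peroxide-removing enzyme, had 0.67 (0.0994), and the immediate early gene FOS 0.60 (0.0994), nearly equal in the replicates at 0.59 and 0.61.

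Of the 10 genes named as higher in Medial, 6 had both Medial arrays above every array of the other 3 nuclei and 0 had both Pulvinar arrays outside their range. Of the 10 named as lower, 2 (KIT and GAD1) had both Medial arrays below the other 3 nuclei. In 1 (PSD3) both Pulvinar arrays were above them, replicate 1 only narrowly. In the remaining genes the levels of Medial or Pulvinar fell within or across those of the other nuclei. The 20 genes were picked for a small p of Medial minus Pulvinar, which favours arrays that stand apart. The same share over all genes was not counted. For the 10 of these 20 genes with further probe sets, 19 of 20 such probe sets had a mean difference of the same sign; the exception was an HS3ST1 probe set.

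**Figure D3:**
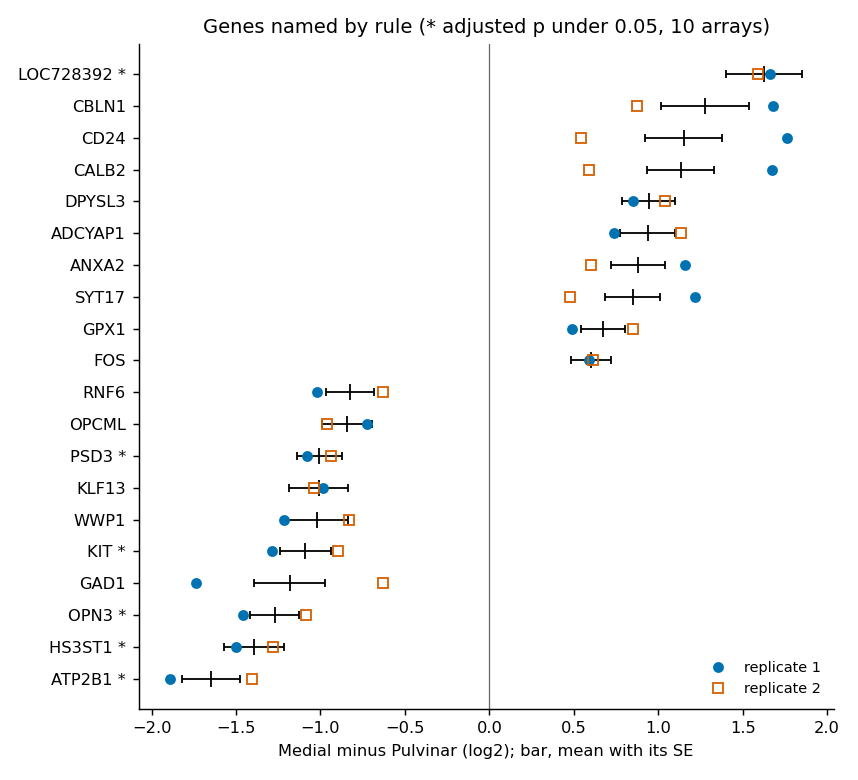
Difference between Medial and Pulvinar (log2) for the 20 genes named by rule, in replicate 1 (blue circles) and replicate 2 (orange squares), with the mean of both and its SE from the 10-array fit (black); an asterisk marks an adjusted p under 0.05 over 10 arrays. Replicates are close for LOC728392, FOS, PSD3, KLF13 and HS3ST1 and far apart for CD24, CALB2 and GAD1, where replicate 1 has the larger difference.

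The gene lists were read against all genes, of which 50.4% were above 0 with a median of 0.0014. Of all genes, 0.142% were called higher and 0.217% lower over the 4 arrays. Over 1.5-fold in both replicates were 0.125% higher and 0.293% lower. The lists were chosen with earlier results of these data known, so whether a list exceeded these shares was not tested. Over 10 arrays 3 of 36 lists had a called member, and 26 of 36 had a median difference under 0.1 in size. The median had the same sign in both replicates for 22 lists, and 5 of these exceeded 0.1 in both. These 5 were the first-order relay, sodium channel and myelin lists, below 0, and the midline and intralaminar and the sex-linked lists, above 0. Single genes had the same sign in both replicates for 9 of 14, 7 of 10, 17 of 24, 10 of 19 and 5 of 11, in that order. Over all genes this share was 49.6%. The sex-linked list holds XIST and Y-linked genes together, so its median has no single direction to read.

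Of 14 measured genes of the first-order relay profile, genes typical of fast-firing sensory and motor relay cells, 12 were below 0 and 2 above. Their median was -0.32, with -0.68 in replicate 1 and -0.20 in replicate 2. HS3ST1 was called over 10 arrays, and PVALB and SCN1A also over the 4. PVALB, parvalbumin, was at 7.95 and 9.25 in Medial and at 9.82 and 9.84 in Pulvinar; the groups did not overlap (mean difference -1.24, adjusted p = 0.56 over 10 arrays and 0.0141 over 4). From replicate 1 to replicate 2 it rose from 7.91 to 9.64 in Anterior and from 10.07 to 11.80 in Ventral. In Centre Median it fell from 11.32 to 10.38, and the SE of PVALB was 0.49 over 10 arrays. SCN1A, a sodium channel of fast-spiking cells, had differences of -1.42 and -0.90 (adjusted p = 0.108 and 0.00196). The kinase STK39 had -0.63 (0.0994), and the neurofilament genes NEFM and NEFH -0.79 (0.438) and -0.78 (0.531), the former with -1.35 in replicate 1 and -0.22 in replicate 2.

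The midline and intralaminar profile gathers peptides and calcium-binding proteins of cells near the midline. It had 10 of 19 genes above 0 and a median of 0.15, with none called over 10 arrays, and 4 higher and 1 lower over the 4. The 4 higher genes were CALB2, CBLN1, NTS and TAC1. NTS, neurotensin, was at 10.98 and 10.37 in Medial and at 9.71 and 8.98 in Pulvinar, with differences of 1.27 and 1.39 (adjusted p = 0.000967 over 4 arrays). Over 10 arrays its adjusted p was 0.717 with an SE of 0.73. The other nuclei ranged from 6.40 to 11.39, but differences between nuclei do not add to this SE. TAC1, the substance P precursor, was at 4.65 and 5.76 against 4.23 and 4.25 (adjusted p = 0.00745 over 4 arrays and 0.511 over 10). The lower gene was PDYN, the dynorphin precursor, at 6.35 and 6.42 against 7.17 and 7.25, with nearly equal differences of -0.82 and -0.83 (adjusted p = 0.0156 over 4 arrays and 0.0945 over 10). CCK, cholecystokinin, had 0.67 (adjusted p = 0.313).

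CALB1, calbindin, is another member of this list. It was at 7.58 and 7.83 in Medial and at 6.56 and 9.55 in Pulvinar, so that Pulvinar replicate 2 stood far above Pulvinar replicate 1. The difference was 1.02 in replicate 1 and -1.72 in replicate 2 (mean -0.35, SE 0.50, adjusted p = 0.929). SST, somatostatin, and CRH, corticotropin-releasing hormone, were also opposite in the replicates, at 0.93 and -0.62, and at 0.59 and -0.92.

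Among neuropeptide precursors and receptors, 28 of 45 were above 0, the median was 0.082, and over the 4 arrays 5 were called higher and 1 lower. Those called were precursors or secreted proteins and no receptor was among them: ADCYAP1, NTS, TAC1, CBLN1 and TRH were higher and PDYN was lower. TRH, thyrotropin-releasing hormone, had differences of 0.91 and 0.60 (adjusted p = 0.0482 over 4 arrays and 0.13 over 10). In the hypothalamus list, which holds TRH, 9 of 13 genes were above 0 with a median of 0.096; POMC had 0.26 (adjusted p = 0.679), AVP 0.16 (0.854) and SLC18A2 0.16 (0.806).

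The sodium channel list had 4 of 10 genes above 0 (median -0.08) and held genes called in both directions over the 4 arrays. SCN3A, a channel best known from developing brain, was at 7.52 and 7.92 in Medial and at 6.87 and 6.87 in Pulvinar (mean difference 0.85, adjusted p = 0.0217 over 4 arrays and 0.184 over 10), the opposite direction to SCN1A. SCN8A had -0.51 (0.512) and FGF12, a channel-binding protein, -0.27 (0.717). Among potassium and HCN channels 9 of 31 were above 0, the median was -0.076, and the smallest p values were those of KCNIP1 (0.48, adjusted p = 0.289), KCNJ6 (-0.54, 0.318), HCN2 (-0.34, 0.401) and KCND2 (-0.69, 0.401). Of calcium channels and pumps 14 of 28 were above 0, and ATP2B1 was the called member; its paralogue ATP2B2 had -0.34 (0.564), and the channel genes CACNA1A and CACNA1B had -0.34 (0.564) and 0.39 (0.457).

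Transmitter genes gave few calls. Of 15 inhibitory neuron genes 6 were above 0 (median -0.013), with GAD1 called over the 4 arrays; GAD2, the other GABA-synthesising enzyme, had -0.50 (adjusted p = 0.494), RELN -0.48 (0.703) and GATA3 -0.20 (0.774). GABA-A receptor subunits had 6 of 10 above 0, with a median of 0.12 in replicate 1 and -0.12 in replicate 2, and GABRA4 at -0.55 (0.324). Ionotropic glutamate receptors had 5 of 14 above 0, with the subunit genes GRIN2B at -0.70 (0.266) and GRIA1 at 0.46 (0.324). Of metabotropic glutamate receptors and phospholipase C genes 5 of 16 were above 0. There PLCB4, which acts downstream of these receptors in thalamic cells, was at 8.53 and 9.25 in Medial and at 9.37 and 9.89 in Pulvinar, without overlap (-0.75, adjusted p = 0.0994), and the receptor gene GRM5 had -0.78 (0.201). Of the glutamate transporters, SLC17A6 and SLC17A7 had -0.29 (0.725) and 0.17 (0.843). Acetylcholine genes had 10 of 15 above 0, with ACHE, which breaks acetylcholine down, at 0.54 (0.263). The ACHE probe sets differed widely, the others having mean differences of 1.379 and -0.15. Calcium-binding proteins and sensors had 9 of 18 above 0, with VSNL1 at -0.61 (0.355) and NCALD at 0.64 (0.176).

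Among synaptic organisers, proteins that join the sides of a synapse, 11 of 18 were above 0. The median of the mean differences was 0.14, but it was 0.034 in replicate 1 and 0.038 in replicate 2 alone, and -0.059 among genes with a mean level of at least 7. CBLN1 was called higher over the 4 arrays and its binding partner NRXN3, a neurexin, lower. NRXN3 was at 8.06 and 7.44 in Medial and at 8.66 and 8.97 in Pulvinar, without overlap, with differences of -0.60 and -1.53 (adjusted p = 0.0141 over 4 arrays and 0.0994 over 10). LRRTM2 had -0.26 and -1.54 (0.238 over 10). Axon guidance genes had 22 of 48 above 0 (median -0.007), led by the ephrin receptors EPHA4 (-0.61, adjusted p = 0.106, with -0.61 in both replicates) and EPHA3 (-0.71, 0.531). Of 39 cadherins and adhesion genes 20 were above 0.

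Matrix genes had 17 of 38 above 0 and a median of -0.018, yet 4 of them were over 1.5-fold lower in both replicates. These were HS3ST1; CHST15, a sulfotransferase of chondroitin sulfate; and the proteoglycans SPOCK3 and SPOCK1. They were picked by size from the list, and other sulfotransferase and proteoglycan genes in it were near 0, such as CHST3 at 0.13, HS6ST1 at 0.12 and BCAN at 0.10, named here after their values were seen. CHST15 was at 7.77 and 7.73 in Medial and at 8.50 and 8.67 in Pulvinar (-0.84, adjusted p = 0.0878 over 10 arrays and 0.0277 over 4). SPOCK3 had differences of -1.23 and -1.16 (adjusted p = 0.15 and 0.000436), and its paralogue SPOCK1 -0.59 and -0.67 (0.211 and 0.191). Wnt pathway genes had 27 of 41 above 0; WNT5A, a Wnt ligand, had -0.89 and the Wnt inhibitor WIF1 0.83, with adjusted p of 0.0317 and 0.0364 over 4 arrays and 0.263 and 0.348 over 10. The groups of both overlapped.

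Of 18 thalamic transcription factors 8 were above 0 (median -0.002). RORA, a nuclear receptor, was at 7.47 and 7.70 in Medial and at 7.90 and 8.64 in Pulvinar (-0.68, adjusted p = 0.274), and TCF7L2 had -0.47 (0.569), with 5 of its 6 probe sets below 0 in both replicates. Immediate early genes had 12 of 21 above 0, and BDNF, a neurotrophin, and KLF10 were called higher over the 4 arrays. BDNF had differences of 1.40 and 0.55 (adjusted p = 0.0108 over 4 arrays and 0.238 over 10), and KLF10 0.50 and 0.66 (0.015 and 0.252). Members of the list also went the other way. DUSP6, not called in either fit, had -0.754 and -0.563, and its other probe sets had mean differences of -1.008 and -0.333. EGR1 had -0.206 and -0.297, but its other probe set had a mean difference of 0.084. Other genes called over the 4 arrays and chosen here after their values were seen were ZEB2, RND3 and MEIS2, with mean differences of -1.05, -1.04 and -0.94; ZEB2 also differed between replicate numbers, at 5.29 and 9.35 in Medial and 6.86 and 9.89 in Pulvinar.

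Genes of oligodendrocytes and myelin were mostly lower in value in Medial, with 5 of 24 above 0. Their median was -0.19, with -0.22 in replicate 1 and -0.21 in replicate 2. None was called over 10 arrays, and SEPTIN4 was called over the 4. SEPTIN4, a septin, was at 8.06 and 8.86 in Medial and at 9.08 and 9.56 in Pulvinar (-0.86, adjusted p = 0.0994 over 10 arrays and 0.0317 over 4). The myelin proteins MAG, MOG and MBP had -0.56 (0.289), -0.40 (0.531) and -0.21 (0.884), each below 0 in both replicates. Other myelin genes were not: in replicates 1 and 2 CNP had 0.388 and -0.153, MOBP 0.265 and -0.655, and CLDN11 0.167 and 0.055. The other MAG probe set had a mean difference of 0.055. The mean level of the list was 8.01 and 8.36 in Medial and 8.22 and 8.60 in Pulvinar, replicate 1 first. Neurofilament and axonal genes had 6 of 24 above 0 (median -0.15), and heat shock and stress genes 7 of 26 (-0.15). The share of myelinated tissue in each punch was not tested against the neuronal values.

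The remaining glial and cellular lists had small medians, most of which differed in sign or size between the replicates. Astrocyte genes had a median of -0.05 in replicate 1 and 0.15 in replicate 2, with GFAP at -0.062 and 0.74 (adjusted p = 0.84). Microglial genes had -0.03 and 0.20, and 23 of 30 had a mean difference above 0. Of the members with the smallest p, C3AR1 had 0.621 and 0.365, CD163 0.348 and 0.507, and PTPRC 0.279 and 0.142. SPP1, osteopontin, which neurons and other glia also make, went the other way, with -2.00 and -0.38. It was called lower over the 4 arrays (limma, adjusted p = 0.0453) and not over 10 (0.335). The median of vessel and blood genes was alike in the replicates, at 0.05 and 0.04, but only 11 of 23 genes had the same sign in both. Ribosomal protein genes had 0.05 in replicate 1, with 31 of 51 above 0, and -0.23 in replicate 2, with 1 of 51 above 0. Oxidative phosphorylation genes had -0.01 and -0.16. No member of these lists was called over 10 arrays.

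**Figure D4:**
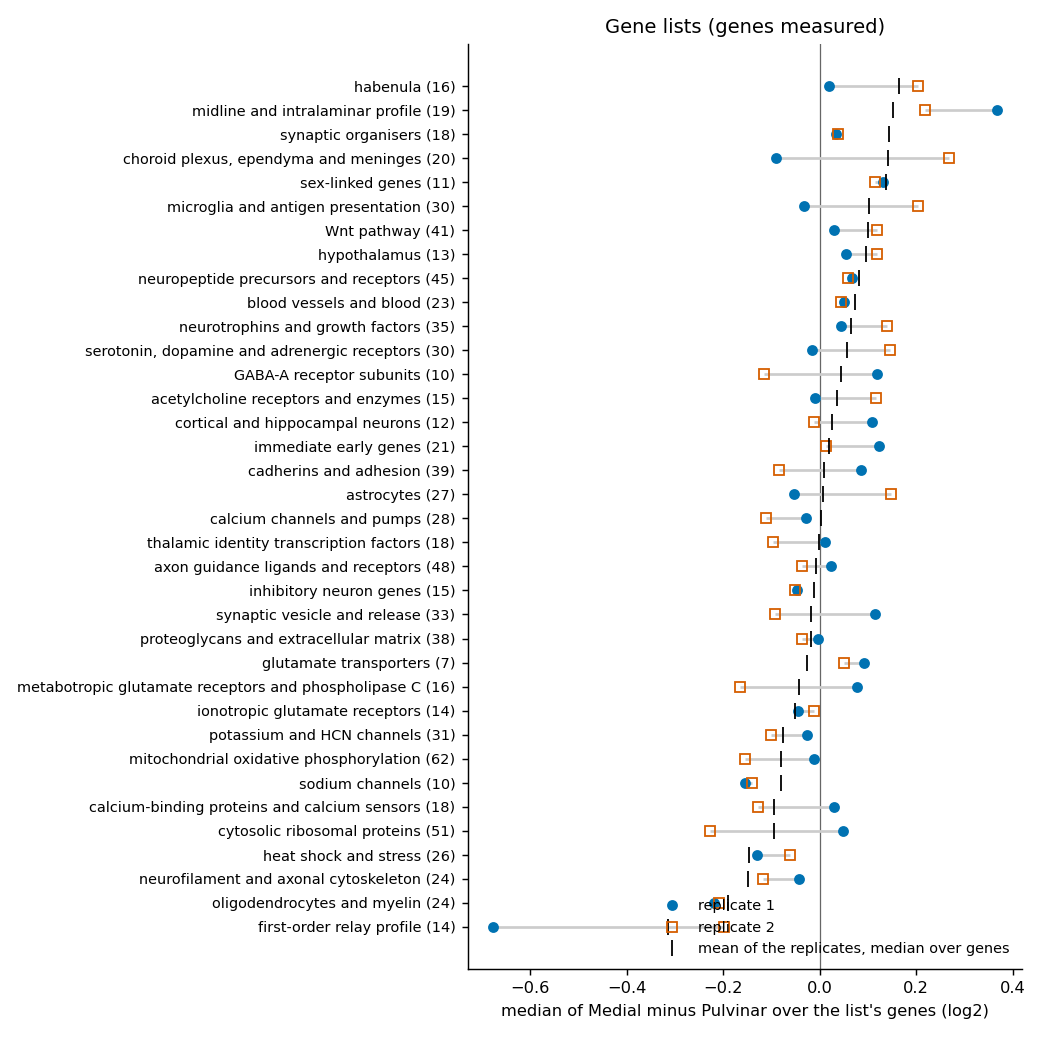
Median of Medial minus Pulvinar (log2) over the measured genes of each of 36 lists, in replicate 1 (blue circles), in replicate 2 (orange squares) and for the mean of the replicates of each gene (black bars; the median of means need not lie between the medians). The first-order relay profile lies furthest below 0 in replicate 1, at -0.68, and the ribosomal, choroid plexus and GABA-A receptor lists change sign between replicates.

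Medial replicate 2 stood apart in some genes of tissue that borders the medial thalamus, chosen here after their values were seen. TTR, transthyretin, the defining product of the choroid plexus, was at 12.19 there, against 7.63 in Medial replicate 1, 8.34 and 8.41 in Pulvinar, and 7.17 to 8.18 in the other nuclei. HTR2C, a serotonin receptor abundant in choroid plexus and also in neurons, was at 8.83 against 6.13 in Medial replicate 1 and 5.25 and 4.61 in Pulvinar. Its difference was called higher over the 4 arrays (2.55, adjusted p = 0.00529) and not over 10 (0.166).

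The transcription factors NR4A2 and POU4F1, the latter a marker of habenula neurons, were at 7.76 and 7.36 in Medial replicate 2, against 5.41 and 5.56 in Medial replicate 1. In Pulvinar NR4A2 was at 5.47 and 5.43, and POU4F1 at 6.28 and 5.68. CADPS2, a secretion protein named here after its values were seen, was at 7.85 in Medial replicate 2 and between 5.53 and 6.03 in the other 3 nuclei.

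Over the whole choroid plexus, ependyma and meninges list, 7 of 20 genes were above 0 in replicate 1 and 16 of 20 in replicate 2. The mean level of the list was 7.17 and 7.57 in Medial and 7.21 and 7.14 in Pulvinar. Other choroid plexus and ependyma markers differed far less than TTR in replicate 2: KL by 0.26, FOLR1 by 0.04, AQP1 by 0.46 and FOXJ1 by -0.10. Over the habenula list 8 of 16 were above 0 in replicate 1 and 14 of 16 in replicate 2, with a mean level of 6.93 and 7.14 in Medial and 6.74 and 6.64 in Pulvinar; CHRNA3, a nicotinic receptor subunit, was at -0.40 and 0.83. The habenula markers CHRNB4 and CHAT differed by 0.03 and 0.09 in replicate 2. CHRNB4 and KL were dim, at mean levels of 4.33 and 4.61 over 10 arrays, so their small differences say little. CALB2, WIF1 and TAC1, described above, are members of the habenula list as well. In replicates 1 and 2, CALB2 differed by 1.67 and 0.59, WIF1 by 1.33 and 0.33, and TAC1 by 0.42 and 1.51. All 6 genes called over 10 arrays were also called without Medial replicate 2, when 62 genes were called in all, 17 higher and 45 lower. Without Medial replicate 1, 35 were called, 27 higher and 8 lower, with TTR, HTR2C, NR4A2, POU4F1 and CADPS2 among them. The part of bordering tissue in the remaining values was not tested.

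**Figure D5:**
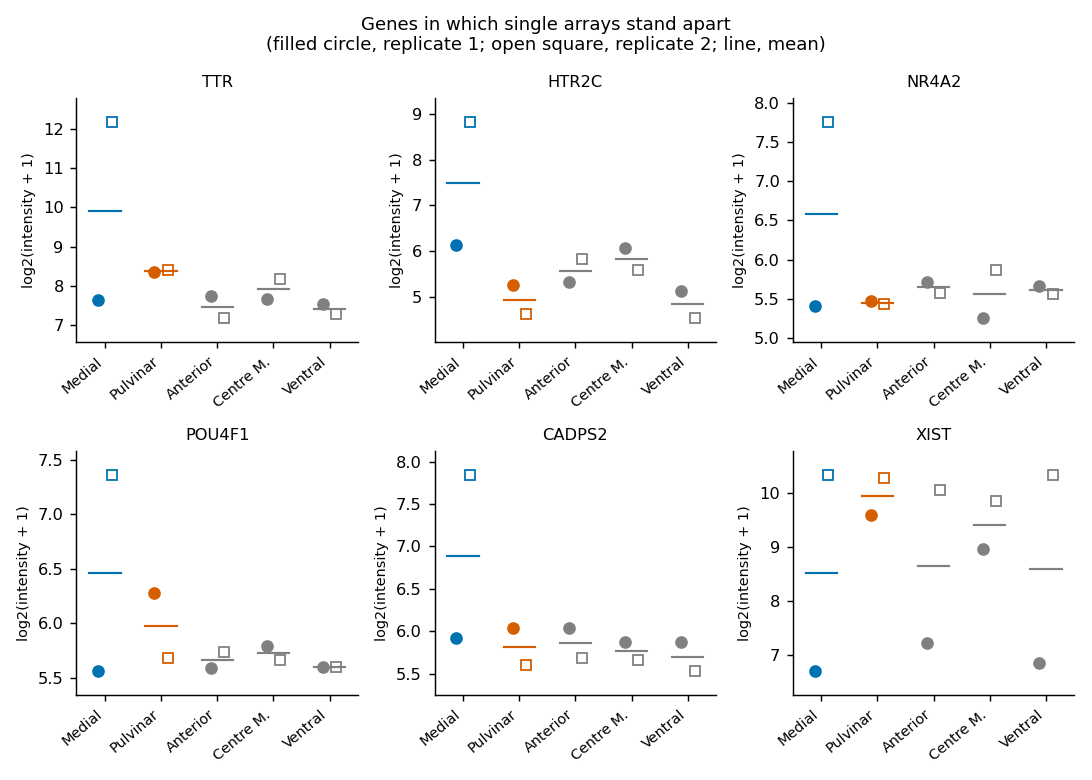
Level, log2(intensity + 1), of 6 genes in which single arrays stand apart, in each array of the 5 nuclei (Medial blue, Pulvinar orange, other nuclei grey; filled circles, replicate 1; open squares, replicate 2; lines, mean of 2 arrays). TTR, HTR2C, NR4A2, POU4F1 and CADPS2 are highest in Medial replicate 2, and XIST separates Medial from Pulvinar in replicate 1 only.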

How the data were processed

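The authors deposited 1 intensity for each of 22283 probe sets on each of 10 arrays, on a linear scale and without detection calls. The submitters' processing notes name RMA without a version, a method that corrects background, normalises arrays to each other and combines the probes of a set; whether all arrays were processed together is not given in the sources used here. The number of arrays limits the precision.

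From these values log2(intensity + 1) was computed, with a pseudocount of 1. Probe sets with exactly 1 gene symbol (19065) were kept, and each gene took its brightest probe set by the mean of 10 arrays, giving 11963 genes with no filter on low values. Each gene was fitted with limma 3.58.1 in R 4.3.3, with a coefficient per nucleus, the replicate number as a block, and empirical Bayes moderation with a trend (4 residual and 8.66 prior degrees of freedom); a second fit used the 4 arrays alone. The fits were tested on simulated data. Genes were called at a Benjamini-Hochberg adjusted p under 0.05 over all genes. The block rests on the values, since the shift between replicate numbers correlated between nuclei at 0.758 to 0.831 in all 10 pairs; the labels do not say what a number marks.

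Named genes were the called ones, those of smallest p with the same sign in both replicates up to 10 in a direction, for each of 36 lists the called members and up to 4 of smallest p, and a few set markers. NTS, TTR, HTR2C, NR4A2, POU4F1, SST, CRH, CHRNA3 and MOG were added after their values were seen. The comparison, lists and markers were chosen with earlier results of these data known, so no list was tested as a set. Alternatives were the pseudocount, quantile normalisation, the probe set rule, a filter on dim genes, the block, the trend, RNA integrity and XIST as further terms, and leaving out each array.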

Additional observations from a re-analysis of the deposited data

How the results depend on the processing

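Over 10 arrays, the 6 genes called became 2 with the mean of all probe sets, 0 without the replicate block (limma, with 88 at an unadjusted p under 0.05) and 13 with the actin signal as a covariate; leaving out 1 array gave 0 to 62 (Pulvinar replicate 1 and Medial replicate 2). Other scale, filter, trend and probe set choices gave 5 to 7, and the block divided by XIST gave 8. The 43 genes called over the 4 arrays became 27 after quantile normalisation, 19 with the mean of all probe sets, 111 among genes with a mean of at least 7, 14 without the variance trend and 0 without the replicate block (32 at an unadjusted p under 0.05 in limma); leaving out an array there leaves no residual degrees of freedom and was not run. The filter tests fewer genes; for the other changes the cause was not tested. Of 162 genes followed, 14 changed sign under some alternative. RPS4Y1 was at -0.195 and SST at -0.471 with the block divided by XIST, and SST at -0.037 with the actin covariate. Leaving out 1 array gave -0.012 to 0.326 for the difference of AVP, -0.065 to 2.198 for CADPS2, -1.261 to 0.557 for CALB1, -0.198 to 0.628 for CHRNA3, -0.76 to 0.432 for CRH, -0.054 to 0.734 for GFAP, -0.001 to 2.271 for NR4A2, -0.488 to 1.455 for POU4F1, -1.02 to 0.059 for RELN, -0.21 to 0.963 for RPS4Y1, -0.002 to 0.318 for SLC18A2, -1.361 to 0.129 for SPARCL1, -0.53 to 0.832 for SST and -0.774 to 3.839 for TTR. Of the 36 list medians 4 changed sign after quantile normalisation, 4 with the mean of all probe sets and 9 among genes with a mean of at least 7; 13 had the other sign in replicate 1 alone and 5 in replicate 2 alone. With 2 arrays of a nucleus, small differences were not measurable.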
